A study of Mus musculus with 96 samples.

Results

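The 9 genes described here encode enzymes that build heme and break it down: Alas1, Alad, Uros, Urod, Cpox, Ppox and Fech on the synthesis side, and Hmox1 and Blvrb on the breakdown side. They were taken by name from the gene counts, through the mouse Ensembl identifiers, and are 9 of the 47373 genes in the table. All 9 were found, and all 9 passed the filter on low counts in every comparison. The rule goes by name and uses no threshold on a measured value.

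Heme is an iron-containing ring that serves as the working group of the cytochrome P450 enzymes, of catalase and of the globins. Its synthesis starts in the mitochondrion with 5-aminolevulinate synthase, continues through several cytosolic enzymes and ends in the mitochondrion, where ferrochelatase inserts iron. In liver the first step, carried by Alas1, sets the rate and is repressed by heme, and drugs that activate the nuclear receptor CAR, phenobarbital among them, are known to raise both P450 enzymes and the demand for heme. Heme oxygenase opens the ring to biliverdin, which the biliverdin reductases turn into bilirubin.

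The samples were livers of 12 male B6C3F1 mice, a hybrid laboratory strain, aged 10 to 11 weeks. The 6 PB mice drank water with 600 ppm phenobarbital for 7 days and the 6 Con mice had 0 ppm. Pieces of several lobes were pooled within each mouse and flash frozen, and each frozen sample was later divided, so fixation began from frozen tissue. Portions were held for 3 months in 70% ethanol (ethanol), in 10% buffered formalin for 18 hours and then ethanol (18-hour formalin), or in 10% buffered formalin throughout (3-month formalin), and these were embedded in paraffin. A last portion of each liver stayed frozen (frozen). 4 further states came from the 3-month formalin material: RNA heated for 30 minutes at 70 °C in TAE buffer (TAE), and an 18-hour incubation at 55 °C without catalyst (heat only), with an organocatalyst and the AllPrep kit (catalyst with AllPrep), or with the catalyst and the PureLink kit (catalyst with PureLink). Each state held 6 PB and 6 Con libraries, 96 in all, and each liver gave 1 library per state.

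The libraries held 1264563 to 18442730 counts, with a median of 11913138. The shallowest was the 3-month formalin library of Con animal 8A, and the next held 6257294. The lowest count of any of the 9 genes in any library was 10, for Ppox. The 6 hepatocyte markers examined summed to at least 17575 CPM, the counts scaled to a common library size, in every library. In frozen tissue that sum was 46362 to 79153 CPM in PB livers (median 56247 CPM) and 66595 to 93483 CPM in Con livers (median 79226 CPM). None of the 6 markers was at 0 counts in all 96 libraries.

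In frozen liver the level of these genes per kilobase of exon ran, from high to low, Alad, Alas1, Urod, Cpox, Blvrb, Fech, Hmox1, Uros and Ppox. Over the 12 frozen libraries Alad averaged 107 CPM per kilobase, Alas1 44.5, Urod 25.0, Cpox 18.1, Blvrb 16.5, Fech 12.1, Hmox1 11.4, Uros 5.24 and Ppox 4.14 CPM per kilobase. Neighbours in this order did not differ beyond their spread for Alas1 and Urod, for Cpox and Blvrb and for Fech and Hmox1. These lengths join the exons of all annotated transcripts, which for Fech came to 13838 bases against 6571 in its longest transcript. For Alas1 they came to 6174 against 3399 bases, for Cpox 6661 against 3097, for Urod 2591 against 1489 and for Blvrb 2782 against 1504. The levels per kilobase of these genes therefore depend on which length is used.

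Alas1, on chromosome 9 at 106233455 to 106248654 on the minus strand of GRCm38 (ENSMUSG00000032786), encodes the rate-setting enzyme of the pathway. It varied between animals more than any of the other 8 genes. In frozen liver the PB animals ran from 96.2 CPM through a median of 277 to 716 CPM, and the Con animals from 44.8 through 169 to 427 CPM. Animals 80B (716 CPM) and 18B (609 CPM) were the high PB livers and 20D (96.2 CPM) the low one, while among Con livers 8A (427 CPM) was highest and 8D (44.8 CPM) and 21C (49.7 CPM) were lowest. The groups overlapped widely in this and in every other state.

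The mean over the 8 states was 71.6 to 464 CPM in PB animals, with a median of 192 CPM, and 30.5 to 371 CPM in Con animals, with a median of 109 CPM. On counts summed per animal the log2 fold change of Alas1, PB over Con, was 0.81 ± 0.60 (SE, n = 6 each, adjusted p = 0.47 by edgeR's quasi-likelihood test), with a 95% interval of -0.49 to 2.11. In fold terms that interval runs from 0.714 to 4.33. Without Con animal 8A the summed value was 1.47 (adjusted p = 0.16), and without PB animal 80B it was 0.50 (adjusted p = 0.71). Within the 8 states the log2 fold change lay between 0.63 and 1.09 and did not pass the test in any of them. The interval holds both no difference and a rise of several fold.

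The order of the animals was kept from portion to portion. PB animal 80B was the highest PB liver in 7 of 8 states and 18B in the remaining state, and 20D was the lowest PB liver in all 8. Con animal 8A was the highest Con liver in all 8 states, and 8D was the lowest in 7 and 21C in 1. The portions of a liver share their animal, so these counts describe an order kept across portions and are not separate tests.

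**Figure D1:**
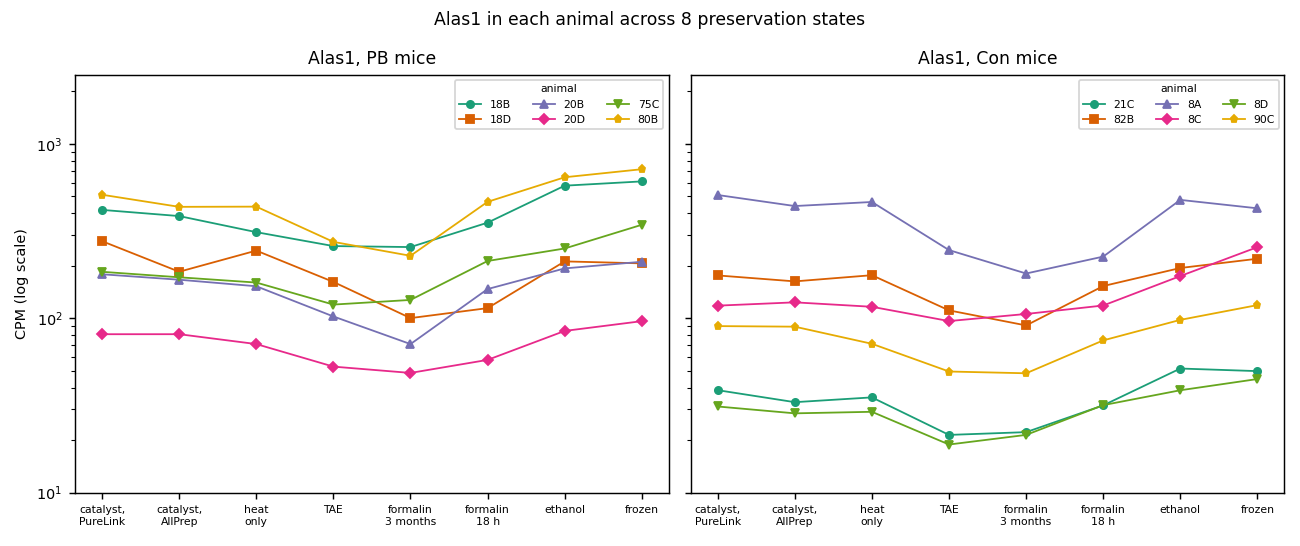
Alas1 level (CPM, log axis) in each PB animal (left) and each Con animal (right) across the 8 states; each line joins the portions of 1 liver. PB liver 20D is the lowest PB line throughout and Con liver 8A the highest Con line throughout, and all 12 livers lie lower in 3-month formalin and TAE than in their frozen portion.

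Put as a standard deviation of log2 CPM within treatment groups, Alas1 differed by 1.18 between animals against 0.22 between portions of the same liver once the mean of each state was removed. Over the 10191 genes with a mean of at least 5 CPM, the median gene had 0.14 between animals and 0.15 within. The between-animal value of Alas1 was at the 99.7th percentile of those genes. Hmox1 followed among the 9 genes with 0.33 between animals against 0.15 within, then Cpox with 0.22 against 0.11, while Fech had the smallest value, 0.067 against 0.099. Summed Kupffer cell and erythroid markers, averaged over the states, were 455 and 219 CPM in 80B, 287 and 348 CPM in 20D, 314 and 232 CPM in 8A and 251 and 246 CPM in 8D, and their part in the Alas1 spread was not tested. The erythroid sum includes Alas2, the erythroid form of the first enzyme.

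The genes whose deviations from the treatment means tracked Alas1 most closely over the 12 animals were Wsb1 (Pearson r = 0.92), the pseudogene Pisd-ps1 (r = 0.92) and the potassium-chloride cotransporter gene Slc12a4 (r = 0.92). All were picked from 10191 genes for this likeness, and the 12 values behind each r share their libraries. Among the other 8 genes, Blvrb ran most strongly the other way (r = -0.75).

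The promoters are shown for Alas1, because of its spread, and for Alad and Blvrb, which rose in PB livers. They come from RefSeq on GRCm38.p6 and run 5′ to 3′ from 250 bases before to 50 after an annotated start: chr9:106247905-106248204 and chr4:62519860-62520159 on the minus strand and chr7:27447728-27448027 on the plus strand. RefSeq lists 2 starts for each of these genes, and the window nearer to the GENCODE gene start is given. The start used lies 700 bases from the GENCODE gene start for Alas1, 9 for Alad and 0 for Blvrb. The Alas1 window therefore does not include the GENCODE start of that gene. Capitals mark matches, on either strand, to 5 motifs: the site of nuclear respiratory factor 1 (the capitals in Alas1), an E box (CACGTG), the antioxidant response element core (TGACNNNGC), a nuclear receptor element (AGTTCA) and a TATA box (TATAAA).
Alas1: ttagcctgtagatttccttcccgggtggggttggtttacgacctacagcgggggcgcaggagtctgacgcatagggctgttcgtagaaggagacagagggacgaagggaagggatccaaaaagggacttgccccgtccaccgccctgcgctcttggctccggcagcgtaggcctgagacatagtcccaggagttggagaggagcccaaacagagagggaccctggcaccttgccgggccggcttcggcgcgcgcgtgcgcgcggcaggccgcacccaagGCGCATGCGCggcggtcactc
Alad: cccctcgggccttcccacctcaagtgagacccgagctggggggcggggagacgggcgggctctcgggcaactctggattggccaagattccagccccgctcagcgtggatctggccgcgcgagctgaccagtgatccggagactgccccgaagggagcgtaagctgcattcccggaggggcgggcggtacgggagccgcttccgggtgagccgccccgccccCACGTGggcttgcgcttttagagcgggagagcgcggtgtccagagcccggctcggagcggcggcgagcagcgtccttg
Blvrb: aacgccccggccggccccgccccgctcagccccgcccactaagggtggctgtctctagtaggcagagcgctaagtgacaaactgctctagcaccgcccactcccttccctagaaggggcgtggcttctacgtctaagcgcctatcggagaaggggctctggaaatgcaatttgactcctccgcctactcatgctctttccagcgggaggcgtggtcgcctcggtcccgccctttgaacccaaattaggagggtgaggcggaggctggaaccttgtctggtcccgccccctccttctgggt

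The Alas1 window held the nuclear respiratory factor 1 site from base 280, counted from 1 at the 5′ end of the window, within the 50 bases after the annotated start. That site is present in 0.971% of the 32851 mouse promoter windows. The Alad window held the E box from base 223, and 7.15% of all windows hold it. The antioxidant response element core occurs in 12.4%, the nuclear receptor element in 14.0% and the TATA box in 13.6% of windows, and none of these letters occurred in the 3 windows shown. Blvrb had no match to any of the 5 motifs, and no matches overlapped. These are letter matches and say nothing of binding.

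Alad, on chromosome 4 at 62509169 to 62519918 on the minus strand (ENSMUSG00000028393), encodes the dehydratase that joins 2 aminolevulinate molecules into porphobilinogen. It was higher in PB livers. In frozen tissue the PB livers held 202 CPM at the lowest, 224 at the median and 253 at the highest, against 154, 180 and 197 CPM in Con livers. The groups did not overlap there or in ethanol, where PB livers held 181 to 213 CPM and Con livers 130 to 168 CPM, and they overlapped in the other 6 states.

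The log2 fold change of Alad was 0.34 ± 0.07 in frozen tissue (SE, adjusted p = 0.0071, edgeR), 0.41 ± 0.07 in ethanol (adjusted p = 0.0021) and 0.36 ± 0.09 in 18-hour formalin (adjusted p = 0.041). In 3-month formalin and the 4 states made from it the values lay between 0.13 and 0.32 and did not pass. On counts summed per animal Alad rose by 1.23-fold, a log2 fold change of 0.30 ± 0.07 (adjusted p = 0.022, n = 6 each). The summed call was lost without Con animal 8A (adjusted p = 0.0510), 8D (0.0538) or 82B (0.0585) or PB animal 80B (0.0529), with log2 fold changes of 0.27 to 0.28. The call in 18-hour formalin was lost without Con animal 8A, 8C, 8D or 82B or PB animal 18D, 20B or 80B (adjusted p = 0.0774 to 0.0937).

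Blvrb, on chromosome 7 at 27447978 to 27466144 on the plus strand (ENSMUSG00000040466), encodes biliverdin reductase B, an NADPH-dependent flavin and biliverdin reductase. It was higher in PB livers by a similar factor. Frozen PB livers held 47.7 CPM at the lowest, 52.3 at the median and 56.0 at the highest, against 34.3, 40.8 and 47.0 CPM in Con livers. The groups were separate in frozen tissue and in ethanol, where PB livers held 39.3 to 48.5 CPM and Con livers 29.4 to 37.2 CPM, and overlapped in the other states.

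Blvrb rose by 0.36 ± 0.08 on the log2 scale in frozen tissue (adjusted p = 0.011, edgeR) and by 0.38 ± 0.07 in ethanol (adjusted p = 0.0047). The other 6 states gave 0.05 to 0.25 and did not pass. Over summed counts the log2 fold change was 0.25 ± 0.06 (adjusted p = 0.021), a 1.19-fold rise, and it missed the threshold without Con animal 8A (adjusted p = 0.0509) or 82B (0.0604) or PB animal 20B (0.0516). Over the 12 animals the deviations of Blvrb were most like those of Cyp2a5 (r = 0.92), Gsta3 (r = 0.92) and Ugt1a1 (r = 0.92), a P450, a glutathione transferase and the bilirubin glucuronosyltransferase.

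Cpox, on chromosome 16 at 58670292 to 58717636 on the plus strand (ENSMUSG00000022742), encodes coproporphyrinogen oxidase, a late mitochondrial step. Its level was below Con in PB livers at the median of every state, and the test was passed in 2 states. In frozen tissue PB livers held 83.5 CPM at the lowest, 107 at the median and 127 at the highest, against 117, 127 and 165 CPM in Con livers. In catalyst with AllPrep the groups were separate, with 86.6 to 121 CPM in PB livers and 124 to 209 CPM in Con livers, while in the other 7 states they overlapped.

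Cpox fell by 0.51 ± 0.13 on the log2 scale in catalyst with AllPrep (adjusted p = 0.032, edgeR) and by 0.46 ± 0.12 in catalyst with PureLink (adjusted p = 0.038). The frozen value was -0.35 ± 0.10 (adjusted p = 0.052) and the value on summed counts -0.39 ± 0.12 (adjusted p = 0.059). DESeq2 called both of these, with adjusted p of 0.031 and 0.019. Con animal 21C was the highest of all 12 livers for Cpox in all 8 states, averaging 185 CPM against 115 to 151 CPM in the other Con animals. The catalyst with PureLink call was lost without it (log2 fold change -0.36, adjusted p = 0.0538) and without Con animal 8A, 82B or 90C or PB animal 18B, 20B, 20D or 80B (adjusted p = 0.0571 to 0.0908). The catalyst with AllPrep call was lost without Con animal 90C or PB animal 18B, 20B, 20D or 80B (adjusted p = 0.0523 to 0.0767). Scaling by library totals alone ended both calls (adjusted p = 0.0515 in catalyst with AllPrep and 0.0769 in catalyst with PureLink). The genes most like Cpox over the 12 animals, picked in the same way, were Mreg (r = 0.87), Gbp10 (r = 0.87) and Vps4b (r = 0.84).

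**Figure D2:**
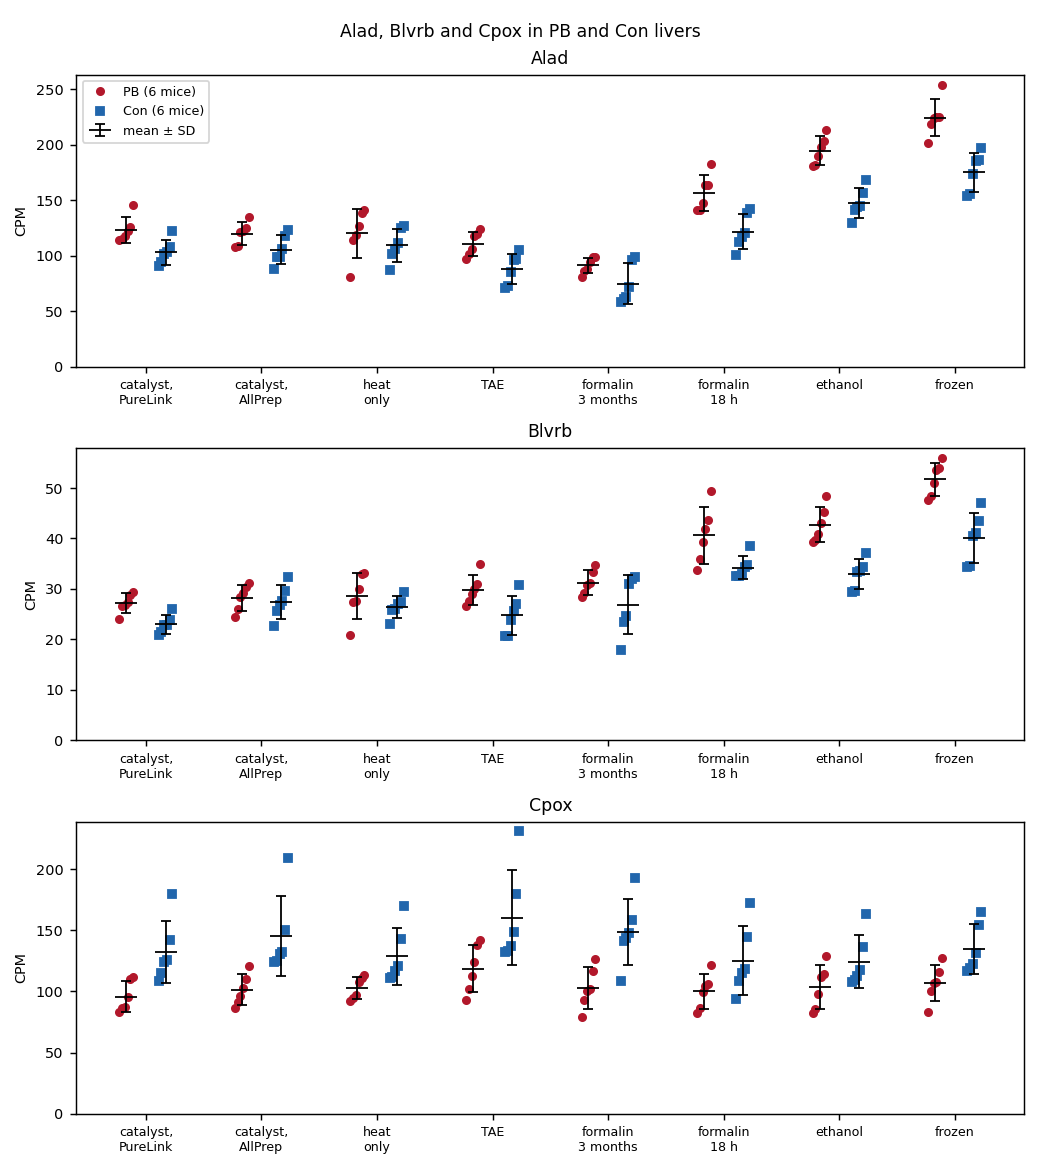
Alad, Blvrb and Cpox (CPM) in each of 6 PB and 6 Con livers of every state, with bars for mean and SD. The PB points of Alad and Blvrb lie above all Con points in frozen tissue and ethanol, and those of Cpox below all Con points in catalyst with AllPrep.

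Uros, Urod, Ppox, Fech and Hmox1 did not pass the PB test in any of the 8 states or on summed counts. These encode uroporphyrinogen III synthase, uroporphyrinogen decarboxylase, protoporphyrinogen oxidase, ferrochelatase and the inducible heme oxygenase. The log2 fold changes on summed counts were -0.12 for Uros (95% interval -0.24 to 0.01), 0.04 for Urod (-0.08 to 0.16), 0.02 for Ppox (-0.16 to 0.20), 0.05 for Fech (-0.05 to 0.16) and 0.12 for Hmox1 (-0.26 to 0.50). In frozen tissue Fech held 159 to 193 CPM in PB livers and 151 to 173 CPM in Con livers, and Urod 60.6 to 72.8 CPM in PB livers and 58.3 to 74.0 CPM in Con livers. The widest of these intervals was that of Hmox1.

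Hmox1 stood out in a single animal. PB animal 20B had the highest Hmox1 of all 12 livers in all 8 states, with 31.8 CPM in frozen tissue against 15.6 to 22.5 CPM in the other PB livers and 15.6 to 23.6 CPM in Con livers. Averaged over the states it held 29.1 CPM, against 13.4 to 20.6 CPM in the other PB animals and 13.1 to 20.2 CPM in Con animals. Its summed Kupffer cell markers (7 genes) were also the highest of the 12, at 499 CPM over the states, followed by PB animal 80B at 455 CPM, which was also second by mean Hmox1. The lowest sum, 148 CPM, was in Con animal 21C, which had the least Hmox1 on average. The order differed in other animals: Con animal 82B had the third highest sum, 363 CPM, with 16.2 CPM of Hmox1, and Con animal 90C had the third highest Hmox1, 20.2 CPM, with a sum of 255 CPM. Their part in the Hmox1 level was not tested. The genes most like Hmox1 over the animals were the innate immune receptor gene Tlr2 (r = 0.95), the plasma protein gene Hrg (r = 0.94) and the kinase gene Irak4 (r = 0.93). Each was picked for this likeness from all genes with a mean of at least 5 CPM.

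**Figure D3:**
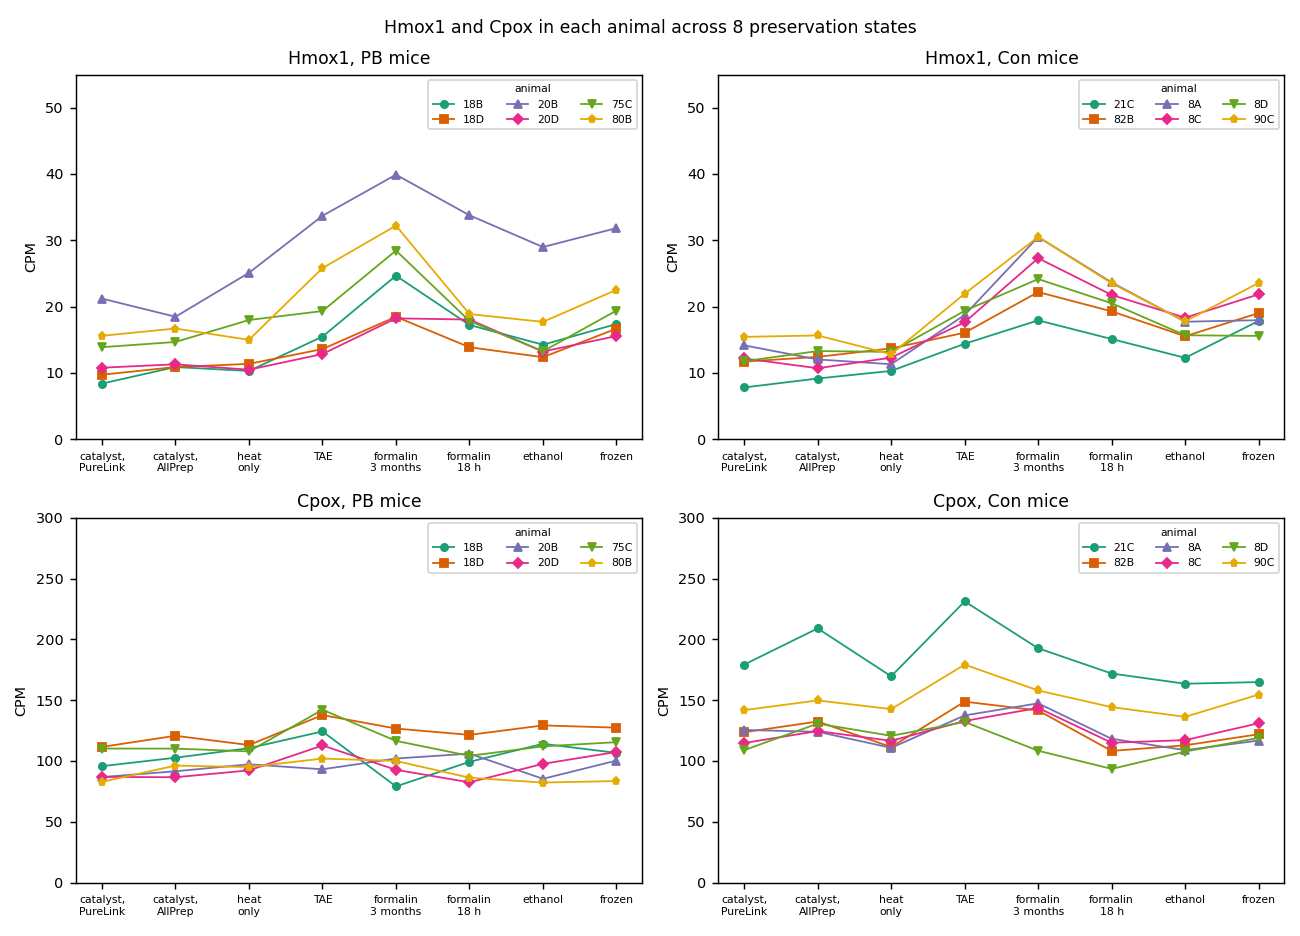
Hmox1 (upper row) and Cpox (lower row), CPM in each PB animal (left) and Con animal (right) across the 8 states; each line is 1 liver. PB liver 20B lies above all others for Hmox1 in every state, and Con liver 21C above all others for Cpox.

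Counted over the 9 genes, 2 passed the PB test in frozen tissue, where 9.43% of all genes tested passed, and 2 in ethanol (6.98% of all genes). In 18-hour formalin 1 passed (4.88%), in 3-month formalin 0 (2.1%), in TAE 0 (3.29%), in heat only 0 (5.03%), in catalyst with AllPrep 1 (4.94%) and in catalyst with PureLink 1 (4.65%). On summed counts 2 passed, where 7.44% of 18478 genes did. The median log2 fold change of the 9 genes in frozen tissue was 0.09, against -0.01 over all genes. Where the count was 0, an unadjusted p under 0.05 was reached by 2 of the 9 genes in 3-month formalin (Alad and Cpox), 3 in TAE (Alad, Blvrb and Cpox) and 1 in heat only (Cpox). Among all genes tested, 1609 of 13018 reached it in 3-month formalin, 2107 of 13822 in TAE and 2585 of 13683 in heat only. DESeq2 called Cpox in 3-month formalin (adjusted p = 0.0155) and 0 of the 9 in TAE and heat only. Over all genes it called 486 of 24879 in 3-month formalin, 771 of 26466 in TAE and 1099 of 26599 in heat only.

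The difference of the PB effect between a preserved state and frozen tissue was tested directly. For all 9 genes and all 7 preserved states the interaction term missed the threshold (edgeR, 0 of 9 in each, against 0.0% of all genes in ethanol, 0.0% in 18-hour formalin, 0.0% in 3-month formalin, 0.0% in TAE, 0.0% in heat only, 0.0% in catalyst with AllPrep and 0.0% in catalyst with PureLink). This fit did not pair the portions of a liver. At an unadjusted p under 0.05 it gave 170 to 662 genes per state, in every state a smaller share than the 0.05 that chance alone gives. With the animal as a block there were 614 to 1652 such genes per state. In that fit 9 genes passed the adjusted test in heat only, none of them among the 9 described here. Of those described here, Blvrb in catalyst with AllPrep was the single gene under an unadjusted 0.05 in the unpaired fit. Its value was -0.32 ± 0.12 on the log2 scale (adjusted p = 1.0 by edgeR, and 0.35 with the animal as a block). The PB effect was thus not shown to differ between any preserved state and frozen tissue, and the unpaired fit is weak evidence that it was the same.

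**Figure D4:**
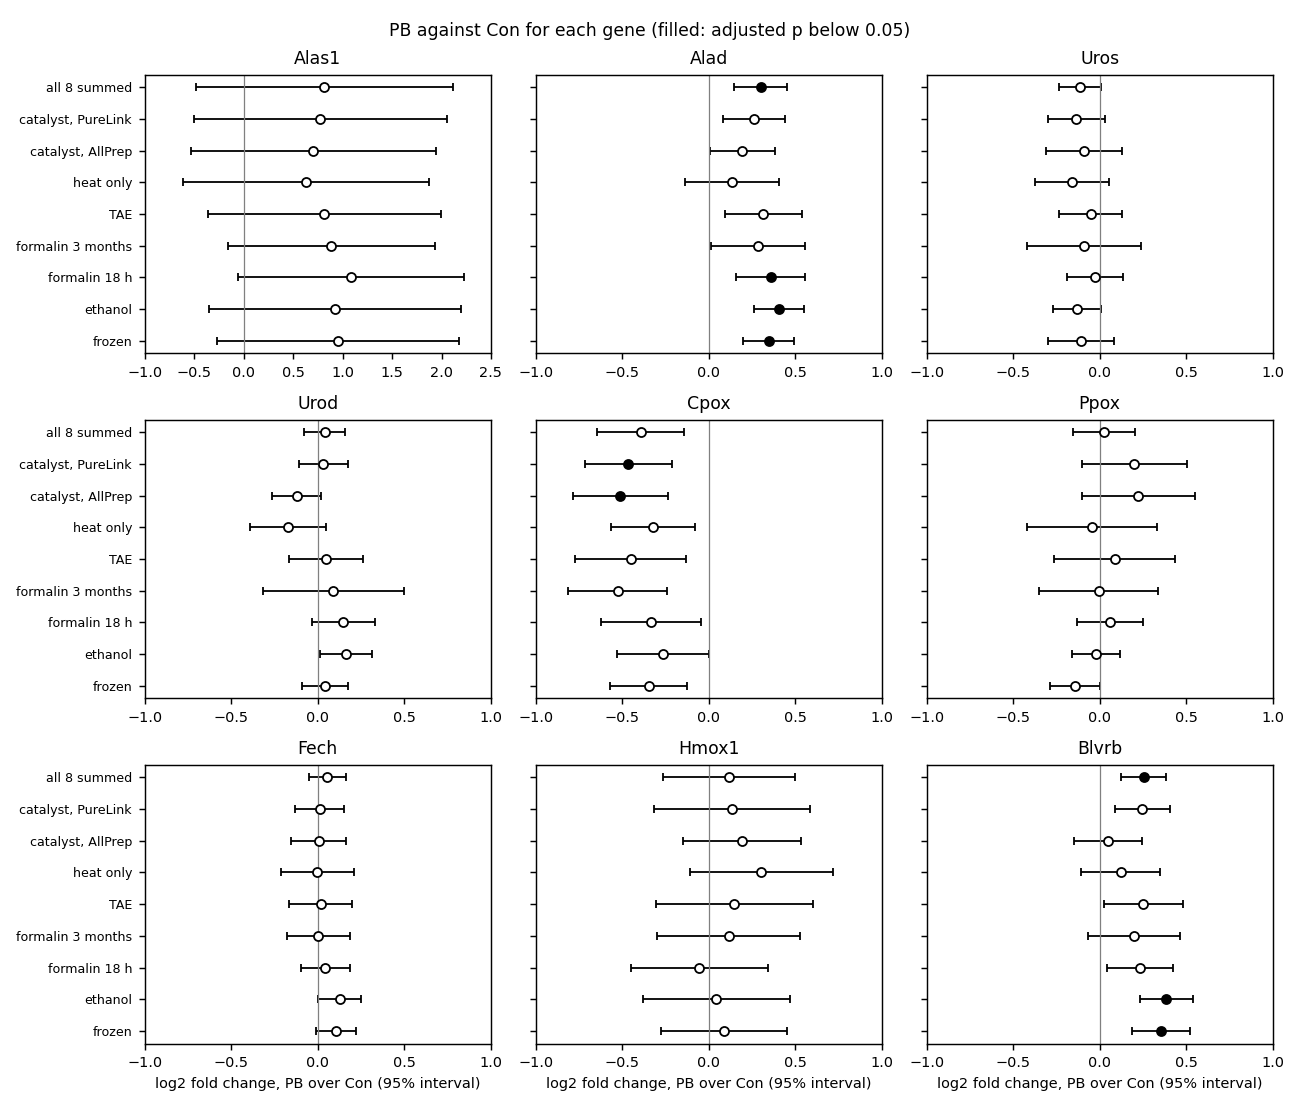
Log2 fold change, PB over Con, of each gene on summed counts and in each state, with 95% intervals; filled points passed at an adjusted p below 0.05. The points of Alad and Blvrb lie to the right and those of Cpox to the left of 0 in every state, and the intervals of Alas1 are several times as wide as the rest.

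In fits without the animal as a block, between 4 and 8 of the 9 genes passed between a preserved state and frozen tissue. Those fits did not pair the portions of a liver, so the spread between animals stayed in their error. Of the 9 genes, 5 passed against frozen in ethanol (32.1% of all genes tested), 5 in 18-hour formalin (39.4%), 8 in 3-month formalin (58.4%), 7 in TAE (57.4%), 4 in heat only (55.2%), 5 in catalyst with AllPrep (48.4%) and 7 in catalyst with PureLink (58.0%). In these unpaired fits the count stayed near the share among all genes in heat only, a little below it, and in catalyst with AllPrep. It was above that share in the other preserved states. No test set the counts of the 9 genes apart from those of all genes. The portions of a liver came from the same divided frozen sample. Counts of RNA are relative to the library, so a change between states is one in the share of the reads. With the animal as a block, 9 of 9 passed in ethanol, where 7508 of 14583 genes did. Frozen RNA was isolated with RNAzol RT and RNeasy MinElute columns, and heat only and both catalyst states with other kits. For the other 4 preserved states the kit is unknown here, and preservation and isolation cannot be told apart in any of the 7.

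Alad, Urod and Blvrb fell against frozen in all 7 preserved states, and in each state every one of the 12 animals was lower than its own frozen portion. Alad averaged 82.9 CPM in 3-month formalin and 171 CPM in ethanol, against 200 CPM in frozen tissue, with log2 fold changes of -1.23 ± 0.08 and -0.22 ± 0.05 (adjusted p = 3.2e-13 and 0.00086, edgeR, n = 12 each). Scaling by library totals alone ended the call of Alad in ethanol (-0.12, adjusted p = 0.12) and of Blvrb in 18-hour formalin (-0.11, adjusted p = 0.10). Urod, on chromosome 4 at 116989965 to 116994413, held 17.4 CPM at the lowest, 24.2 at the median and 44.4 at the highest in 3-month formalin, against 58.3, 64.1 and 74.0 CPM in frozen tissue, with no overlap. Its log2 fold change there was -1.28 ± 0.10 (adjusted p = 2.9e-11). Blvrb fell furthest in catalyst with PureLink, to 25.1 CPM on average against 46.0 CPM in frozen tissue, a log2 fold change of -0.87 ± 0.05 (adjusted p = 8.2e-13).

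Alas1 averaged 108 CPM in 3-month formalin, 126 CPM in TAE and 275 CPM in frozen tissue. It fell by 1.34 ± 0.40 on the log2 scale in 3-month formalin (adjusted p = 0.0055, edgeR) and by 1.09 ± 0.42 in TAE (adjusted p = 0.028), and the other 5 states did not pass. The TAE call was lost with library totals alone (-0.85, adjusted p = 0.079). When each liver was set against its own frozen portion, with the animal as a block, Alas1 fell in all 7 states, by 0.15 ± 0.04 in ethanol (adjusted p = 0.0033), by 0.72 ± 0.04 in 18-hour formalin (adjusted p = 3.6e-15) and by 1.25 ± 0.06 in 3-month formalin (adjusted p = 5.0e-16). In 18-hour formalin, 3-month formalin and TAE all 12 animals were lower than their frozen portion.

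Ppox, on chromosome 1 at 171275990 to 171281186 on the minus strand (ENSMUSG00000062729), moved in both directions. It was higher than frozen in all 12 animals in ethanol, 26.8 CPM against 18.7 CPM, and in catalyst with PureLink, 25.4 CPM, and lower in all 12 in 18-hour formalin, 14.9 CPM, 3-month formalin, 11.0 CPM, and TAE, 12.02 CPM. The log2 fold changes were 0.53 ± 0.04 in ethanol (adjusted p = 2.9e-09, edgeR), 0.44 ± 0.09 in catalyst with PureLink (adjusted p = 0.00013), -0.33 ± 0.06 in 18-hour formalin (adjusted p = 3.7e-05), -0.72 ± 0.08 in 3-month formalin (adjusted p = 9.9e-09) and -0.63 ± 0.09 in TAE (adjusted p = 1.1e-06). Library totals alone ended the call in 18-hour formalin (-0.14, adjusted p = 0.063). The exons of Ppox share 791 bases with those of B4galt3 on the opposite strand, and the strand setting of the counting is not given in the sources used here. B4galt3 itself was at 7.91 CPM in frozen tissue and rose in ethanol by 0.40 ± 0.07 (adjusted p = 4.2e-05) and in TAE and the 3 overnight incubations by 0.24 to 0.39, while its value in 3-month formalin was 0.20 ± 0.10 (adjusted p = 0.11). The opposite-strand partners of Alas1 (4930500F10Rik) and of Cpox (Gpr15) averaged at most 0.082 and 0.022 CPM in any state.

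Uros, on chromosome 7 at 133686243 to 133710072 on the minus strand, rose in ethanol by 0.42 ± 0.05 on the log2 scale (adjusted p = 1.2e-06, edgeR), with 24.9 CPM against 18.8 CPM in frozen tissue. It also rose in catalyst with AllPrep, by 0.24 ± 0.07 (adjusted p = 0.0043), and in catalyst with PureLink, by 0.30 ± 0.06 (adjusted p = 8.1e-05), and it fell by 0.24 ± 0.08 in 3-month formalin (adjusted p = 0.018, and 0.065 with library totals alone). Cpox averaged 113 CPM in 18-hour formalin, its lowest state, and 139 CPM in TAE, its highest, against 121 CPM in frozen tissue. Its rise of 0.22 ± 0.09 in TAE (adjusted p = 0.049) was lost under another scaling, DESeq2 or no filter (adjusted p = 0.076 to 0.097). With the animal as a block that rise was 0.21 ± 0.04 (adjusted p = 0.00025), and Cpox fell by 0.07 ± 0.03 in ethanol (adjusted p = 0.022), 0.11 ± 0.04 in 18-hour formalin (adjusted p = 0.011) and 0.10 ± 0.04 in catalyst with PureLink (adjusted p = 0.019).

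Fech, on chromosome 18 at 64452914 to 64490251 on the minus strand (ENSMUSG00000024588), was higher after formalin than in frozen tissue. It averaged 218 CPM in 3-month formalin, 193 CPM in 18-hour formalin and 185 CPM in TAE, against 167 CPM in frozen tissue, and was higher in all 12 animals in both formalin states. The log2 fold changes were 0.41 ± 0.05 in 3-month formalin (adjusted p = 2.4e-08, edgeR), 0.21 ± 0.04 in 18-hour formalin (adjusted p = 0.00020) and 0.17 ± 0.05 in TAE (adjusted p = 0.0054). In catalyst with PureLink it fell by 0.16 ± 0.04 (adjusted p = 0.0011), but scaling by library totals alone turned this to 0.11 (adjusted p = 0.027). With the animal as a block Fech also fell in ethanol, by 0.06 ± 0.02 (adjusted p = 0.020).

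Hmox1, on chromosome 8 at 75093621 to 75100589 on the plus strand (ENSMUSG00000005413), was highest in 3-month formalin and lowest in the overnight incubations. It averaged 26.2 CPM in 3-month formalin, 12.7 CPM in catalyst with PureLink, 13.0 CPM in catalyst with AllPrep and 13.7 CPM in heat only, against 19.9 CPM in frozen tissue. All 12 animals were higher than frozen in 3-month formalin (log2 fold change 0.40 ± 0.13, adjusted p = 0.011, edgeR) and all 12 lower in the 3 overnight incubations, by 0.65 ± 0.14 in catalyst with PureLink (adjusted p = 0.00029), 0.60 ± 0.12 in catalyst with AllPrep (adjusted p = 0.00018) and 0.58 ± 0.13 in heat only (adjusted p = 0.00058). With the animal as a block Hmox1 also fell in ethanol, by 0.27 ± 0.05 (adjusted p = 2.1e-05).

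**Figure D5:**
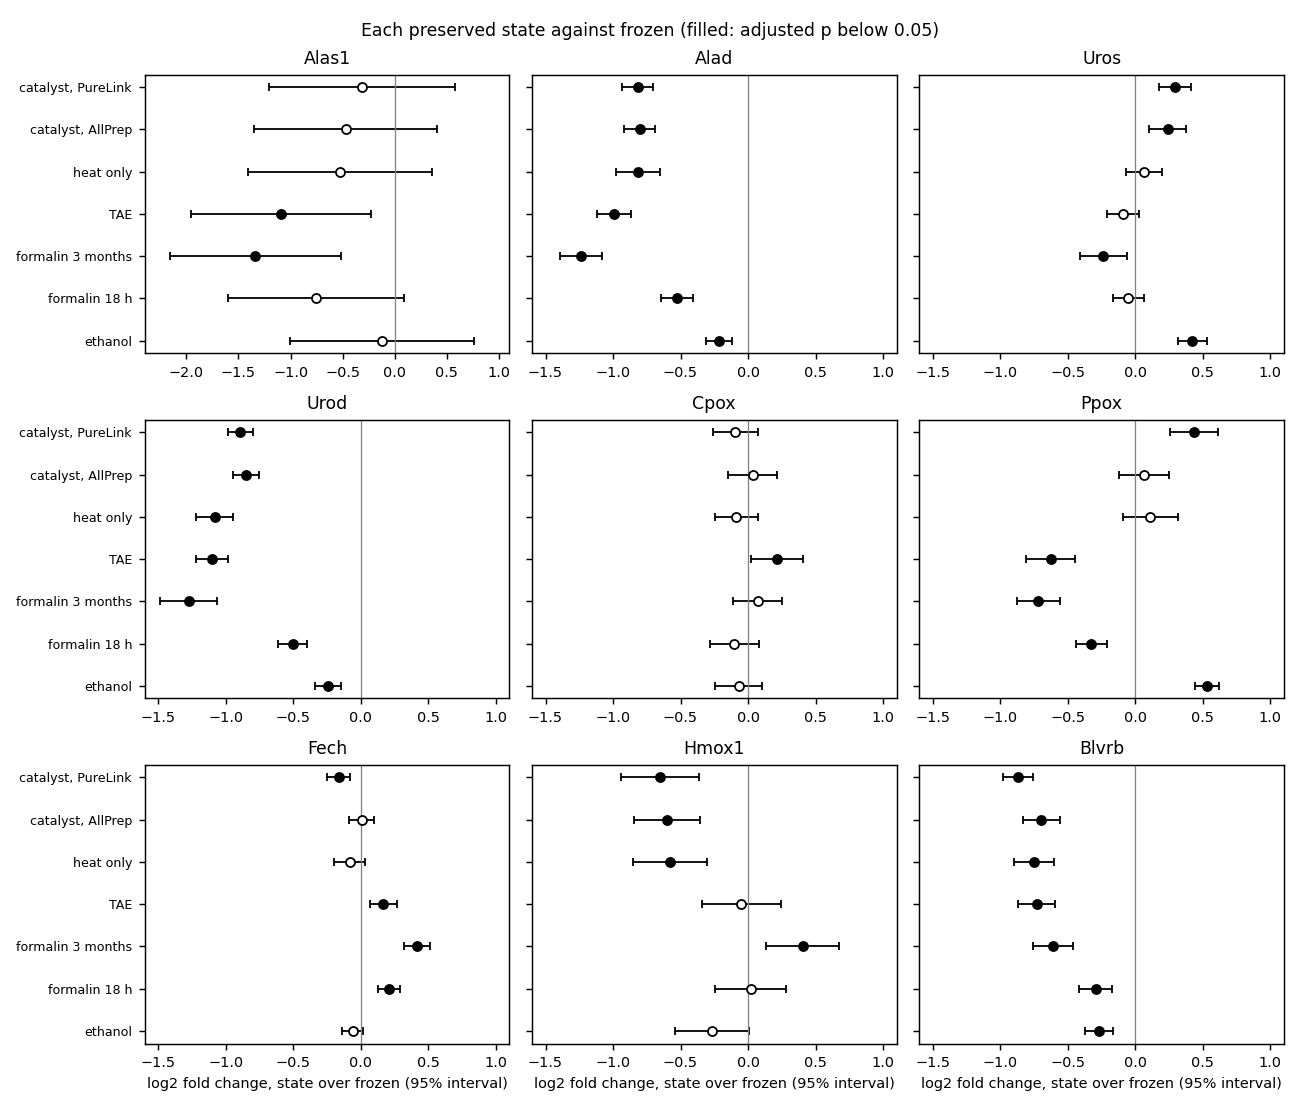
Log2 fold change of each gene in each preserved state over frozen, with 95% intervals; filled points passed at an adjusted p below 0.05. Alad, Urod and Blvrb lie left of 0 in all 7 states, Ppox lies on both sides, and the small fall of Fech in catalyst with PureLink turns to 0.11 when libraries are scaled by their totals alone.

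The workups were also set against the 3-month formalin material they started from. In TAE 3 of the 9 genes passed (16.1% of all genes tested), in heat only 5 (45.4%), in catalyst with AllPrep 6 (45.3%) and in catalyst with PureLink 8 (57.9%). The TAE count was 1 without the shallowest library, that of Con animal 8A. With the animal as a block it was 6, which added Alas1, Urod and Cpox, and 4594 of 14101 genes passed. Library totals alone ended the TAE calls of Hmox1 and Fech and the catalyst with PureLink call of Blvrb (-0.02, against -0.24 ± 0.07 with an adjusted p of 0.0053). The states share the 3-month formalin libraries, so their changes are not independent of each other.

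In all 3 overnight incubations Ppox, Alad and Uros rose against 3-month formalin and Hmox1 and Fech fell. Ppox rose by 1.18 ± 0.11 on the log2 scale in catalyst with PureLink (adjusted p = 5.9e-10, edgeR), to 25.4 CPM against 11.0 CPM, by 0.79 ± 0.11 in catalyst with AllPrep and by 0.89 ± 0.12 in heat only. Hmox1 fell by 1.04 ± 0.15 in catalyst with PureLink (adjusted p = 1.2e-06), by 1.00 ± 0.13 in catalyst with AllPrep and by 0.93 ± 0.14 in heat only. Fech fell by 0.56 ± 0.05 in catalyst with PureLink, by 0.40 ± 0.05 in catalyst with AllPrep, by 0.44 ± 0.06 in heat only and by 0.24 ± 0.06 in TAE (adjusted p = 0.0046). Alad rose by 0.44 ± 0.08 in each catalyst state and by 0.47 ± 0.10 in heat only, and was below frozen in all 3. Alas1 rose by 1.05 ± 0.41 in catalyst with PureLink (adjusted p = 0.032), and with the animal as a block also in catalyst with AllPrep, by 0.75 ± 0.07 (adjusted p = 7.6e-10), in heat only, by 0.72 ± 0.09 (adjusted p = 5.2e-07), and in TAE, by 0.17 ± 0.06 (adjusted p = 0.038). The block likewise called Urod in heat only (0.27 ± 0.11, adjusted p = 0.042) and Cpox in catalyst with PureLink (-0.14 ± 0.05, adjusted p = 0.017).

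The rest of the pathway was followed on the counts summed per animal, where 4.91% of all genes were called higher and 2.53% lower in PB livers. The median log2 fold change over all genes was 0.0046. Of 6 other enzymes of heme handling, 0 passed and their median log2 fold change was 0.08: Alas2, the erythroid form of the first enzyme, was at 0.18 ± 0.11 (adjusted p = 0.39, edgeR) and Hmox2, the constitutive heme oxygenase, at 0.06 ± 0.09 (adjusted p = 0.77). Of 13 measured genes of mitochondrial transport and iron-sulfur assembly, 2 rose and 0 fell, with a list median of 0.05. They were Slc25a37, which carries iron into mitochondria (0.86 ± 0.10, adjusted p = 0.00013), and the glutaredoxin gene Glrx5 (0.40 ± 0.10, adjusted p = 0.027), while Tmem14c, which moves protoporphyrinogen, was at 0.19 ± 0.06 (adjusted p = 0.088).

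Of 11 genes of heme carriage and uptake, 2 rose and 1 fell, with a list median of -0.02. The heme-binding membrane protein gene Pgrmc1 rose by 0.80 ± 0.11 (adjusted p = 0.00051, edgeR), to 1329 CPM in PB livers on average against 775 CPM in Con livers, and the heme transporter gene Slc48a1 rose by 0.46 ± 0.12 (adjusted p = 0.031). Lrp1, the receptor for hemopexin-bound heme, fell by 0.43 ± 0.10 (adjusted p = 0.022), and hemopexin itself (Hpx, -0.04 ± 0.47) and haptoglobin (Hp, -0.12 ± 0.49) did not pass (adjusted p = 0.97 and 0.91). Of 15 regulators, 2 rose, the xenobiotic receptor gene Nr1i2 (0.38 ± 0.09, adjusted p = 0.024) and the mitochondrial protease gene Lonp1 (0.26 ± 0.06, adjusted p = 0.016), and 2 fell, Hnf4a (-0.27 ± 0.06, adjusted p = 0.017) and Foxo1 (-0.26 ± 0.05, adjusted p = 0.0090), with a list median of -0.05. Ncor1 was at -0.05 ± 0.05 (adjusted p = 0.60) and Clpx, which unfolds the Alas1 protein, at -0.35 ± 0.14 (adjusted p = 0.15).

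The lists for the steps after heme breakdown and for the enzymes that use heme hold several genes known to respond to phenobarbital, and their medians were not tested against those of the other lists. Of 8 genes of bilirubin conjugation and transport, 6 rose and 0 fell, with a list median of 1.49. The export pump gene Abcc3 rose by 3.35 ± 0.34 (adjusted p = 5.4e-05, edgeR) and the uptake carrier gene Slco1a4 by 1.55 ± 0.24 (adjusted p = 0.0017). The glutathione transferase genes Gsta1 (5.99 ± 0.76, adjusted p = 0.00037) and Gsta2 (3.09 ± 0.38, adjusted p = 0.00025), which are close copies whose reads the counting may have split, rose at low levels (3.74 and 4.18 CPM in PB livers on average, against 0.0562 and 0.483 CPM in Con livers), and Slco1b2 (0.25 ± 0.10) and Slco1a1 (-0.27 ± 0.25) did not pass. Of 14 heme-binding enzymes and their P450 reductase, 8 rose and 0 fell, with a list median of 1.43. The phenobarbital-responsive P450 gene Cyp2b10 averaged 1605 CPM in PB livers and 0.337 CPM in Con livers, a log2 fold change of 12.57 ± 0.25 (adjusted p = 2.5e-12), and Cyp2c55 rose by 8.58 ± 0.35 (adjusted p = 7.3e-09). Cyp3a11 rose by 5.95 ± 0.49 (adjusted p = 6.1e-06) and Cyp2c29 by 4.43 ± 0.34 (adjusted p = 3.3e-06), while Cyp2e1 (0.20 ± 0.10, adjusted p = 0.28) and catalase (Cat, 0.06 ± 0.11, adjusted p = 0.81) did not pass.

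Markers of other cells gave these values beside the PB comparison. Of 8 erythroid markers tested and 7 Kupffer cell markers, 0 passed on summed counts, with list medians of -0.09 for the erythroid and 0.32 for the Kupffer cell list. Of 5 stellate markers 0 passed (median 0.11), of 5 endothelial markers 1 rose, Lyve1 (0.86 ± 0.19, adjusted p = 0.017, edgeR), and of 6 hepatocyte markers 1 fell, Tat (-0.61 ± 0.15, adjusted p = 0.026), with a hepatocyte list median of -0.31. The erythroid list includes Alas2, which held 123 to 215 CPM in frozen PB livers and 123 to 178 CPM in frozen Con livers. Summed erythroid markers in frozen tissue, Alas2 among them, were 239 to 522 CPM in PB livers and 296 to 399 CPM in Con livers, and Kupffer cell markers 297 to 679 CPM in PB livers and 245 to 475 CPM in Con livers. Their part in the changes of Alad, Blvrb and Cpox was not tested. Counts are relative to the library, so between PB and Con livers less of a transcript per cell and fewer cells holding it cannot be told apart.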

How the data were processed

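RNA of 96 liver portions was sequenced after ribosomal RNA depletion in strand-specific libraries, per the labels' protocols. STAR 2.5, CASAVA and edgeR, with the builds GRCm38 and mm10, are named per the submitters' processing notes. How reads were counted to genes, and whether by strand, the sources used here do not say. The table deposited by the authors held raw counts per Ensembl gene. A second table of normalized values was not used. Symbols and coordinates came from GENCODE M21 (GRCm38), which held 46954 of the 47373 gene identifiers; 92 spike-in lines held 110 counts in all and were left out. No 2 libraries were identical.

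Tests used edgeR 4.0.16 quasi-likelihood fits over all genes passing its filter on low counts, with TMM scaling, Benjamini-Hochberg adjustment and a threshold of 0.05; they were tested on simulated data. SE and 95% intervals are on the log2 scale. PB was compared with Con within each state and on counts summed per animal. States were compared with treatment as a covariate and, in the main fits, without the animal as a block. Levels are CPM scaled over all 96 libraries. log2 CPM for spread and likeness used a prior count of 2. Alternatives were DESeq2 1.42.0, limma 3.58.1, other scalings, no filter, leaving out libraries, and the animal as a block.

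Each animal gave a library in every state per the labels, so animals pair across states. Deviations from group means correlated between a preserved and the frozen library of an animal at 0.32 to 0.88 over 84 pairs. PB and Con mice are separate animals, and their comparison within a state has no pairs.

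The 9 genes, the 6 pathway lists and the 5 marker lists were chosen with earlier results of these data known. From each pathway list up to 4 genes that passed on summed counts with the largest change and at least 1 CPM, and up to 2 that did not pass with the highest level, are named. For genes whose spread is described, other than Fech, the 3 genes most like them are named.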

Additional observations from a re-analysis of the deposited data

Results flagged for a closer look

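In 11 of 144 groups of 6 libraries, the highest or lowest library of a gene stood apart from the rest by more than Dixon's 95% limit. Chance alone gives a share of about 0.05 of groups if values are normally spread, and the portions of a liver are not independent. The limit was applied to CPM and not to log2 CPM, and high values stand further apart on the CPM scale. Whether each flag holds on the log2 scale was not tested. Alas1 in Con animal 8A accounted for 4 of them. It held 477 CPM in ethanol against 38.6 to 194 CPM in the other Con livers, 464 CPM in heat only against 29.1 to 177 CPM, 440 CPM in catalyst with AllPrep against 28.5 to 163 CPM, and 509 CPM in catalyst with PureLink against 31.2 to 176 CPM.

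Hmox1 in PB animal 20B accounted for 2, with 29.0 CPM in ethanol against 12.4 to 17.7 CPM in the other PB livers and 33.8 CPM in 18-hour formalin against 13.9 to 18.9 CPM. Con animal 21C stood high in catalyst with AllPrep for Cpox, 209 CPM against 124 to 150 CPM in the other Con livers, and in catalyst with PureLink for Fech, 168 CPM against 141 to 147 CPM. Con animal 90C stood high in catalyst with PureLink for Uros, 29.4 CPM against 22.0 to 24.2 CPM, and for Ppox, 30.1 CPM against 21.2 to 23.8 CPM. PB animal 20B stood low in TAE for Urod, 24.9 CPM against 30.4 to 33.0 CPM in the other PB livers.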

How the results depend on the processing

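The number of the 9 genes called in PB livers over Con livers ranged, on leaving out 1 animal at a time, from 0 to 1 in 18-hour formalin, 3-month formalin, catalyst with AllPrep and catalyst with PureLink and from 0 to 3 on summed counts (0 without Con animal 8A or 82B). In 3-month formalin it was 1 with DESeq2 (486 of 24879 genes tested) and 1 with no filter (343 of 24890). Scaling by library totals alone gave 0 in both catalyst states (789 of 13934 genes tested with AllPrep and 709 of 14311 with PureLink). Against frozen, the same scaling gave 3 genes in 18-hour formalin (6960 of 14565 genes tested), 7 in heat only (9641 of 14717) and 8 in catalyst with AllPrep (8907 of 14737). It moved the median of all genes to between 0.06 and 0.31 on the log2 scale, from -0.02 to 0.04 with TMM. It also turned the fall of Fech in catalyst with PureLink to 0.11. With the replicate block, pairing each animal's libraries, 9 genes passed in ethanol against frozen (7508 of 14583 genes tested). In TAE against 3-month formalin 6 passed (4594 of 14101), and the block took away no call of any of the 9 genes. TAE against 3-month formalin gave 1 gene without the shallowest library, a setting chosen after seeing the data, as were sums over 7 states. The PB value of Ppox on summed counts, 0.02, ran from -0.026 to 0.059 on leaving out animals and was -0.012 without catalyst with AllPrep and -0.010 without catalyst with PureLink; that of Hmox1, 0.12, ran from -0.065 to 0.19, negative without PB animal 20B. The cause of these shifts was not tested. Of 689 values under alternatives, for genes that had passed within or between states and for all 9 on summed counts, 633 kept their direction and side of the threshold, 43 lost the call, 5 gained it, all on summed counts, and 8 changed sign; calls gained by other genes within or between states are not among these. Depth limits Ppox and Uros most, which had as few as 10 and 15 counts in a library.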

Other observations

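Alas2, known as the erythroid form of the first enzyme, was listed in these livers at a level per kilobase of joined exons not below that of Alas1. The joined exons of Alas1 came to 6174 bases against 3399 in its longest transcript, so this comparison depends on which length is used. In frozen tissue it held 73.1 ± 17.01 CPM per kilobase in PB livers and 64.3 ± 9.29 CPM per kilobase in Con livers (SD, n = 6 each), where Alas1 held 58.9 ± 40.0 CPM per kilobase in PB livers and 30.1 ± 23.7 CPM per kilobase in Con livers. Alas2 lies inside the span of Apex2 on the opposite strand in GENCODE, and without a known strand setting reads of both cannot be told apart. Con animal 82B averaged 360 CPM of the beta-globin gene Hbb-bs over the 8 states, against 85.7 to 174 CPM in the other 11 livers, while its Alas2 averaged 106 CPM, within the 95.3 to 155 CPM of the others. In its frozen portion Hbb-bs was 166 CPM, so the high globin lay in other portions. The cells that carry the Alas2 signal were not tested.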
